A study of Mus musculus with 6 samples.

Results

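The mouse genes 1700001L05Rik, 1700020I14Rik and Gm40773 are annotated by GENCODE as long intergenic noncoding RNAs (lincRNAs), and are described here as sources of small RNAs in the testis. They are 3 of 5936 lincRNA genes and of 55450 genes whose longest transcript was searched. They were selected on their reads of piRNA size at 10 days post partum (dpp), counted in an earlier look at the same libraries, so their levels at that age and their differences between libraries are a description and carry no test. A read was counted for a gene when its 24 to 32 nt occurred without a mismatch on either strand of that gene's longest transcript. All 3 genes had reads in all 6 libraries.

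Small RNA of 18 to 35 nt was sequenced from whole C57BL/6 mouse testis, with 1 library per group. The groups were Dnmt3L knockout (KO) and wild-type (WT) testes at 10 dpp, Miwi2 KO and WT testes at 10 dpp, and Dnmt3L KO and WT testes at 16.5 days post coitum (dpc). Each library pooled 3 mice at 10 dpp or 7 to 8 mice at 16.5 dpc, the WT animals were littermates, and the sources used here do not give the alleles. Since no group has a second library, no difference has a replicate check and no p-value is given.

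PIWI-interacting RNAs (piRNAs) are small RNAs of germ cells that load PIWI proteins and guide them to transposons and other transcripts. Many start with U, because PIWI proteins prefer that base at the 5′ end, and many of those made after birth and before the pachytene stage are cut from one strand of mRNAs and long noncoding RNAs. MIWI2 (Piwil4) is the nuclear PIWI protein of fetal germ cells and DNMT3L is the cofactor of de novo DNA methylation in the same cells, and males without either lose their germ cells after birth.

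The 3 genes differed first in what their reads were. 1700001L05Rik lies on the minus strand of chromosome 15 (GRCm38, 83353847 to 83367282), 3600 bases from Arfgap3 and 8325 bases from Pacsin2, which encode an ARF GTPase-activating protein and a membrane-bending protein. Its transcript of 4969 nt has 3 exons. Every read of 24 to 32 nt that matched it was found in no other gene. Its reads started most often inside the stretch below (GRCm38, chr15:83354833-83354987, minus strand, in exon 3, transcript positions 3829 to 3983), shown because 3 of its 4 hot spots lie in it. Capitals mark the first 10 bases of the reads that start at positions 3839, 3881 and 3943.
1700001L05Rik 3829 to 3983: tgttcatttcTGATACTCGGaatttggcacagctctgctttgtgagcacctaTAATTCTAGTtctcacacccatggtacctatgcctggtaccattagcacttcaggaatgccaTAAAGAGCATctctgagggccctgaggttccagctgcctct
Over the libraries of 10 dpp the fourth hot spot, at position 4240, was most often read as the 30 nt sequence below (chr15:83354547-83354576, minus strand). The U at its first position, written T, is in capitals. At 10 dpp it made up 364 of 538 reads of that position in Miwi2 KO and 320 of 747 in Miwi2 WT. In the Dnmt3L line it made up 0 of 6 in the KO and 3 of 40 in the WT. At 16.5 dpc these were 37 of 78 in Dnmt3L KO and 0 of 14 in Dnmt3L WT.
1700001L05Rik 4240: Tctgagactcccaactaagcccctgggcct

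1700020I14Rik lies on the plus strand of chromosome 2 (119594297 to 119607502), 2010 bases from Oip5, a centromere protein gene on the opposite strand, and its transcript of 8300 nt has 3 exons. Only 33% of its 9087 sense reads at 10 dpp were found in no other gene, and over all 6 libraries its sense reads were also found in transcripts of 2914 other genes. Its main hot spot, at position 7488, is the 26 nt sequence below (chr2:119606690-119606715, plus strand). That sequence occurred in the longest transcripts of 49 genes, on the sense strand of 20 and the antisense strand of 29. Its letters resemble the B2 family of mouse short interspersed repeats, a naming that rests on general knowledge, since no repeat annotation was used here.
1700020I14Rik 7488: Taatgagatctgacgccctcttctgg

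Gm40773 lies on the plus strand of chromosome 10 (117864670 to 117868075) and overlaps the lincRNA gene Gm32552 on the opposite strand. Its transcript has 1502 nt. Of its 6150 sense reads at 10 dpp 11 reads, or 0.179%, were found in no other gene. One sequence of 24 nt at position 642 (chr10:117867215-117867238, plus strand) made up most of them, and 1 position on the other strand, 673, gave 97.8% of its antisense reads (most read sequence at chr10:117867223-117867246, minus strand). From 5′ end to 5′ end, both included, the pair spans 32 nt. The letters of both sequences resemble the B1 family of short interspersed repeats, again from general knowledge.
Gm40773 sense 642: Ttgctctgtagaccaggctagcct
Gm40773 antisense 673: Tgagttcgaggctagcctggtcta
The sense sequence was found in 4 genes. Besides Gm40773 these are Cdk6, a cell-cycle kinase gene, on the sense strand, and on the antisense strand Tulp3, a ciliary trafficking gene, and Exd1, a piRNA pathway gene. The antisense sequence was found in 20 genes. A read of either sequence cannot be assigned to Gm40773 from these files.

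Libraries held 28701563 to 47232494 reads, and a level of 1 RPM is 1 read in 1000000 of a library's reads of any length. Reads of 24 to 32 nt were 13.9% of the library in Dnmt3L KO and 19.7% in Dnmt3L WT at 10 dpp, 28.2% in Miwi2 KO and 28% in Miwi2 WT, and 45.9% in Dnmt3L KO and 42.2% in Dnmt3L WT at 16.5 dpc. Reads of 29 to 32 nt were 0.714% of these in Dnmt3L KO and 5.30% in Dnmt3L WT at 10 dpp, against 23% to 26.5% in the other 4 libraries. All 13 X-linked spermatogenic miRNAs of the marker list were lower in Dnmt3L KO than in Dnmt3L WT at 10 dpp, with summed levels of 13677 and 49664 reads per 1000000 miRNA reads. In the Miwi2 line none of the 13 was lower in the KO, with sums of 73540 in Miwi2 KO and 36310 in Miwi2 WT. The 9 annotated germ cell miRNAs of the Mir290 and Mir302 clusters summed to 47.9 in Dnmt3L KO and 59.7 in Dnmt3L WT at 10 dpp, and to 68.3 in Miwi2 KO and 89.7 in Miwi2 WT, with the 4 Mir302 genes at 0 in all 4. The Sertoli cell miRNA Mir202 stood at 563 in Dnmt3L KO and 397 in Dnmt3L WT at 10 dpp, and at 795 in Miwi2 KO and 471 in Miwi2 WT. The part of these shifts in the results below was not tested, and fewer germ cells and less RNA per cell cannot be told apart in whole testis.

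1700001L05Rik had 19.3 RPM of sense reads in Dnmt3L KO and 186 RPM in Dnmt3L WT at 10 dpp, 145 RPM in Miwi2 KO and 208 RPM in Miwi2 WT, and 16.5 RPM in Dnmt3L KO and 16.9 RPM in Dnmt3L WT at 16.5 dpc. By RPM the 3 libraries that were high were both WT libraries and the Miwi2 KO of 10 dpp. The Dnmt3L KO of 10 dpp lay near the fetal level on that scale. These levels rest on 555, 7064, 5411, 9381, 777 and 716 reads in that order, and the 95% exact Poisson interval of the Dnmt3L KO at 10 dpp, the level with the fewest reads, was 17.8 to 21 RPM. Reads carry no molecular identifiers, and all intervals here cover counting error only. The nearness of the Dnmt3L KO of 10 dpp to the fetal level depended on the scaling. With TMM scaling, which centres on the bulk of transcripts, its level was 107, against 12.4 and 13.0 in the fetal KO and WT. TMM levels of the other libraries of 10 dpp were 170 in Dnmt3L WT, 96.2 in Miwi2 KO and 107 in Miwi2 WT. Scaled to miRNA reads, the Dnmt3L KO of 10 dpp had 25.6, below the 63.4 of the fetal KO and 57.0 of the fetal WT. By reads found in 1 gene, 1700001L05Rik ranked 3rd among the 1685 lincRNA genes that had any at 10 dpp, after Rmrp, the RNA of RNase MRP, and AU020206, and 38th among all genes.

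**Figure D1:**
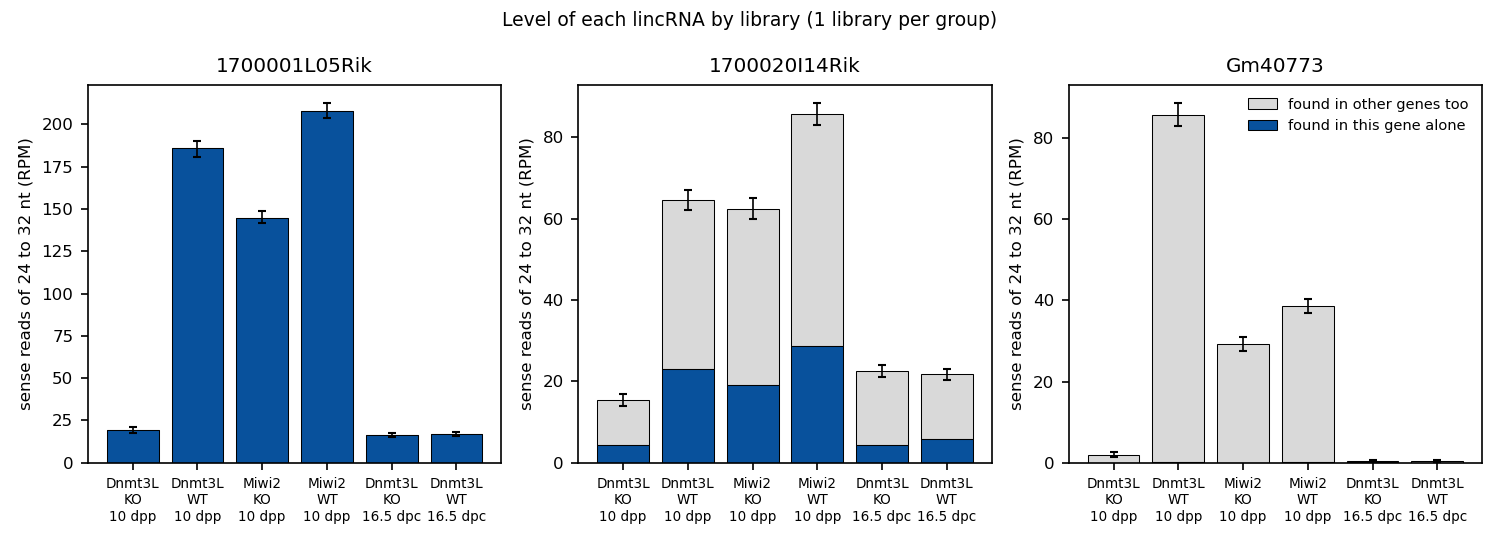
Sense reads of 24 to 32 nt in RPM for each lincRNA in the 6 libraries. Dark bars are reads found in no other gene, grey bars reads found in other genes too, and error bars 95% exact Poisson intervals of the sum. The dark part is the whole bar for 1700001L05Rik, 23 of 64.6 RPM for 1700020I14Rik in Dnmt3L WT at 10 dpp, and close to nothing for Gm40773.

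1700020I14Rik had 15.4 RPM in Dnmt3L KO and 64.6 RPM in Dnmt3L WT at 10 dpp, 62.5 RPM in Miwi2 KO and 85.8 RPM in Miwi2 WT, and 22.6 RPM in Dnmt3L KO and 21.7 RPM in Dnmt3L WT at 16.5 dpc. Its reads found in no other gene stood at 4.36 and 23 RPM, 19.1 and 28.7 RPM, and 4.28 and 5.92 RPM in the same libraries and order. Both measures put the Dnmt3L KO of 10 dpp beside the fetal libraries and below the other 3 libraries of its age. By reads of 1 gene 1700020I14Rik ranked 12th among lincRNA genes and 377th among all genes.

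Gm40773 had 1.99 RPM of sense reads in Dnmt3L KO and 85.8 RPM in Dnmt3L WT at 10 dpp, 29.3 RPM in Miwi2 KO and 38.6 RPM in Miwi2 WT, and 0.529 RPM in Dnmt3L KO and 0.354 RPM in Dnmt3L WT at 16.5 dpc. The fetal values are 25 and 15 reads. Here the Dnmt3L WT of 10 dpp was above all others, and the WT libraries of that age differed from each other more than the Miwi2 KO from its WT. Its antisense reads stood at 2.26 RPM in Dnmt3L KO and 18.4 RPM in Dnmt3L WT at 10 dpp, 43.2 RPM in Miwi2 KO and 39.7 RPM in Miwi2 WT, and 0.233 RPM in Dnmt3L KO and 0.118 RPM in Dnmt3L WT at 16.5 dpc. The order of both WT libraries of 10 dpp was thus opposite on the 2 strands.

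The 5 other lincRNA genes with the most sense reads at 10 dpp, Lockd, Gm20732, Gm30655, Gm31805 and 4933406B17Rik, had 529078 to 877071 reads each, of which at most 0.0290% were found in 1 gene. After the values were seen, lincRNA genes were therefore ranked by reads of 1 gene as well. Gm5113, 9330102E08Rik and Gm26917 followed 1700001L05Rik in that order, with 5069 to 6022 such reads over the 4 libraries of 10 dpp, against 22411 for 1700001L05Rik.

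The strand of the reads separated the genes again. 1700001L05Rik had 2 antisense reads in Dnmt3L KO at 16.5 dpc and 0 in the other 5 libraries. In these the 95% exact Poisson interval of a count of 0 reaches up to 0.0820 to 0.129 RPM. For 1700020I14Rik the sense share was 95.5% in Dnmt3L KO and 96.4% in Dnmt3L WT at 10 dpp, 94.9% in Miwi2 KO and 95.8% in Miwi2 WT, and 74.1% in Dnmt3L KO and 78.9% in Dnmt3L WT at 16.5 dpc. Its sense share was lower in both fetal libraries, and the exact Clopper-Pearson intervals of the ages did not overlap. Among its reads of 1 gene the sense share was 97.7% to 99.7% at 10 dpp and 87.1% to 87.2% at 16.5 dpc. For Gm40773 the sense share was 46.7% in Dnmt3L KO and 82.4% in Dnmt3L WT at 10 dpp, and 40.4% in Miwi2 KO and 49.3% in Miwi2 WT. Its fetal libraries had too few reads to place, with 69.4% (51.9% to 83.7%) in Dnmt3L KO and 75.0% (50.9% to 91.3%) in Dnmt3L WT.

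By 5′ end, 81.6% to 93.5% of the antisense reads of each library lay between positions 7501 and 7750 of 1700020I14Rik, beside its main sense hot spot, most often at 7517 and 7515. A second antisense site, between 2501 and 2750, held 12 reads in Miwi2 KO (9.60%), 9 in Dnmt3L KO at 16.5 dpc (2.42%) and at most 1 in each other library. Reads there matched several positions of the transcript. Of all its antisense reads 15.3% began with U in Dnmt3L KO and 24.4% in Dnmt3L WT at 16.5 dpc. A at position 10 was found in 79.8% in Dnmt3L KO and 75.6% in Dnmt3L WT. At 10 dpp 4.76% to 10.1% began with U and 61.9% to 78.4% had A at position 10. Positions 7517 and 7515 held 45.1% and 12.1% of antisense reads at 10 dpp, and 37.0% to 39.2% and 21.1% to 29.6% at 16.5 dpc. The most read sequence of each, found in 27 and 47 genes, begins with C and has A at position 10. The shares thus rest largely on these positions.

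A at position 10 is a mark of piRNAs made by ping-pong, the cycle in which PIWI proteins cut opposite strands in turn, and the direct measure is an overlap of 10 nt between 5′ ends on opposite strands. Of overlaps of 1 to 20 nt, 10 nt made up 10.2% in Dnmt3L KO and 1.11% in Dnmt3L WT at 16.5 dpc, and 0% in Dnmt3L KO, 4.99% in Dnmt3L WT, 21.9% in Miwi2 KO and 8.10% in Miwi2 WT at 10 dpp, with reads that match several positions counted at each. The most read 5′ ends of both strands, 7488 and 7517, span 30 nt, both ends included. On the sense strand A at position 10 was found in 20.3% of reads in Dnmt3L KO and 16.6% in Dnmt3L WT at 16.5 dpc. The few antisense reads of 1700020I14Rik found in no other gene differed. At 16.5 dpc 86.7% of 30 such reads in Dnmt3L KO and 78.4% of 37 in Dnmt3L WT began with U. For Gm40773 the share of 10 nt at 10 dpp was 99.1% in Dnmt3L WT, 0% in Miwi2 KO and 98.5% in Miwi2 WT. Its main pair spans 32 nt and lies outside the overlaps counted, so these shares rest on other pairs. A at position 10 was found in 93.0% to 96.8% of its sense and 0.504% to 6.15% of its antisense reads at 10 dpp.

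U at position 1 was found in 92.1% of the sense reads of 1700001L05Rik in Dnmt3L KO and 93.2% in Dnmt3L WT at 10 dpp, 90.8% in Miwi2 KO and 88.5% in Miwi2 WT, and 94.7% in Dnmt3L KO and 90.2% in Dnmt3L WT at 16.5 dpc. In each library the share was above that of all reads sense to a transcript, which was 83.0% and 81.2%, 72.5% and 72.6%, and 69.5% and 71.5% in the same order. U makes up 29% of the bases of the transcript. With each distinct sequence counted once, the share with U was 71.0% to 84.1%. A at position 10 was found in 16% to 19.7% of its reads over the 6 libraries.

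For 1700020I14Rik U at position 1 was found in 90.5% of sense reads in Dnmt3L KO and 92.7% in Dnmt3L WT at 10 dpp, 78.6% in Miwi2 KO and 85.0% in Miwi2 WT, and 77.4% in Dnmt3L KO and 86.5% in Dnmt3L WT at 16.5 dpc. Both libraries of the Dnmt3L line at 10 dpp were above both of the Miwi2 line. The same held for all reads sense to a transcript, with 83.0% and 81.2% against 72.5% and 72.6%. It did not hold for the reads of 1700020I14Rik found in no other gene. Among these U was found in 86.4% in Dnmt3L KO and 91.6% in Dnmt3L WT, and 86.0% in Miwi2 KO and 87.1% in Miwi2 WT. Its reads of 1 gene had A at position 10 in 21.6% to 30.8% of cases at 10 dpp, and its shared reads in 5.38% to 10.3%. For Gm40773 U at position 1 was found in 93.0% to 96.8% of sense reads at 10 dpp, which is the value of essentially 1 sequence.

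Reads of 1700001L05Rik were most often 27 nt long in all 6 libraries. In Dnmt3L KO 3.96% and in Dnmt3L WT 14.2% of its reads had 29 to 32 nt at 10 dpp, against 29% in Miwi2 KO and 22.7% in Miwi2 WT, and 16.3% in Dnmt3L KO and 10.9% in Dnmt3L WT at 16.5 dpc. The order of the 10 dpp libraries was that of all their reads of piRNA size. Reads of 1700020I14Rik were most often 26 nt long on the sense strand in all 6 libraries. PIWI proteins of the mouse carry piRNAs of different length, MILI the shorter and MIWI2 and MIWI the longer ones.

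**Figure D2:**
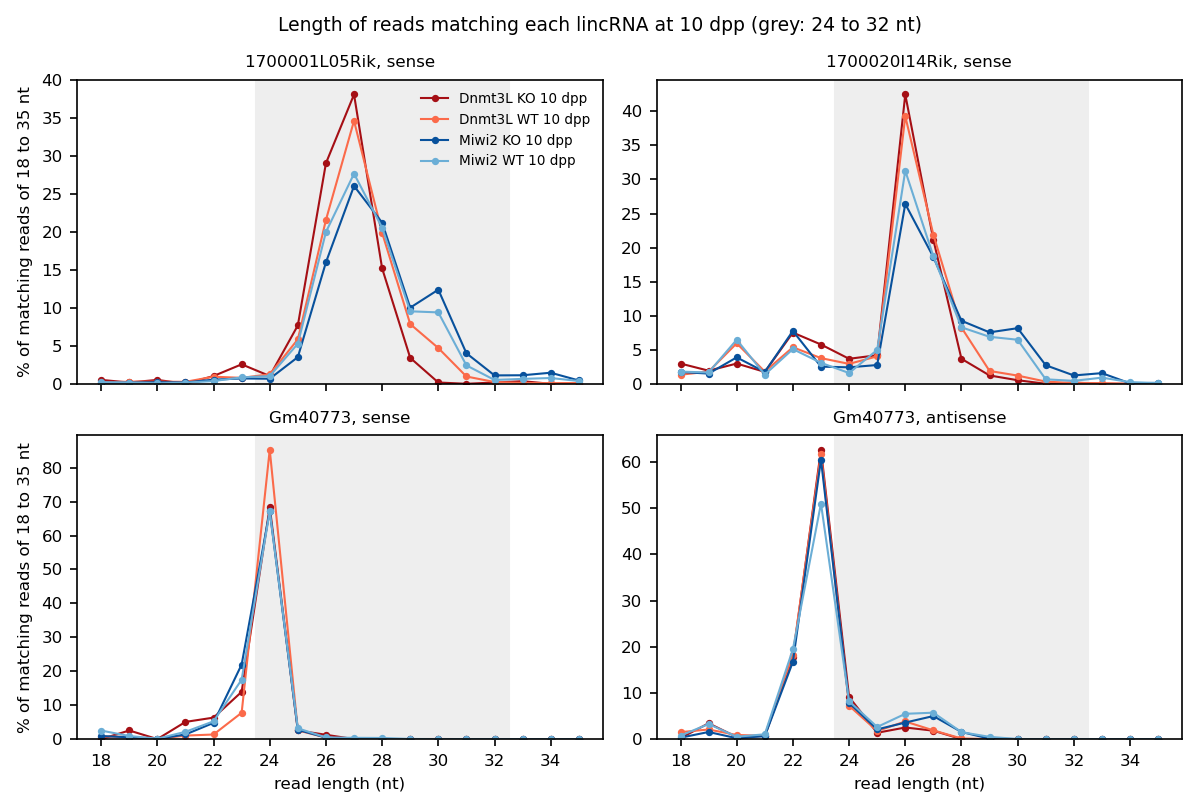
Length of all reads of 18 to 35 nt that match each lincRNA in the 4 libraries of 10 dpp, as percent of those reads, with the 24 to 32 nt class shaded. 1700001L05Rik peaks at 27 nt and 1700020I14Rik at 26 nt in each library, while Gm40773 peaks at 24 nt on the sense strand and at 23 nt on the antisense strand.

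Gm40773 had a different length profile. Its sense reads of piRNA size were 24 nt long in 94.7% of cases in Dnmt3L KO and 96.5% in Dnmt3L WT at 10 dpp, and in 95.5% in Miwi2 KO and 93.8% in Miwi2 WT. Over 18 to 35 nt its antisense reads peaked at 23 nt, below the piRNA class. The antisense sequence resembles the mature miRNA mmu-miR-1195 and the sense sequence mmu-miR-3470b (RefSeq, GRCm38.p6), shown with the seed, bases 2 to 8, in capitals.
mmu-miR-1195: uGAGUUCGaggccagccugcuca
mmu-miR-3470b: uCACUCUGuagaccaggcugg
Over 23 nt the antisense stretch differed from mmu-miR-1195 by C13U, C20G and A23U, and over 21 nt the sense stretch differed from mmu-miR-3470b by C2U, A3G and G20A, counted from the 5′ end of the miRNA with its base first. Only the antisense read shares the seed of its miRNA. Mir1195, the gene of mmu-miR-1195, stood at 11.3 reads per 1000000 miRNA reads in Dnmt3L KO and 133 in Dnmt3L WT at 10 dpp, and at 620 in Miwi2 KO and 593 in Miwi2 WT. The antisense reads of Gm40773 had the same order of libraries. Mir3470b, the gene of mmu-miR-3470b, stood at 16.6 in Dnmt3L KO and 214 in Dnmt3L WT at 10 dpp. In the Miwi2 line it stood at 268 in Miwi2 KO and 339 in Miwi2 WT. The sense reads of Gm40773 had another order, with Dnmt3L WT the highest.

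Along 1700001L05Rik, exon 3 (transcript positions 779 to 4969, 84.3% of the length) held 98.4% of sense reads in Dnmt3L KO and 98.9% in Dnmt3L WT at 10 dpp, 97.1% in Miwi2 KO and 96.9% in Miwi2 WT, and 93.7% in Dnmt3L KO and 83.4% in Dnmt3L WT at 16.5 dpc. Exon 1 held 5.28% in Dnmt3L KO and 15.4% in Dnmt3L WT at 16.5 dpc, against at most 2.74% at 10 dpp. The fetal WT thus had the largest part of its reads in exon 1 among the 6 libraries. All 20 bins of 250 nt had reads at 10 dpp, and the bin from 3751 to 4000 held 35.0% of them.

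**Figure D3:**
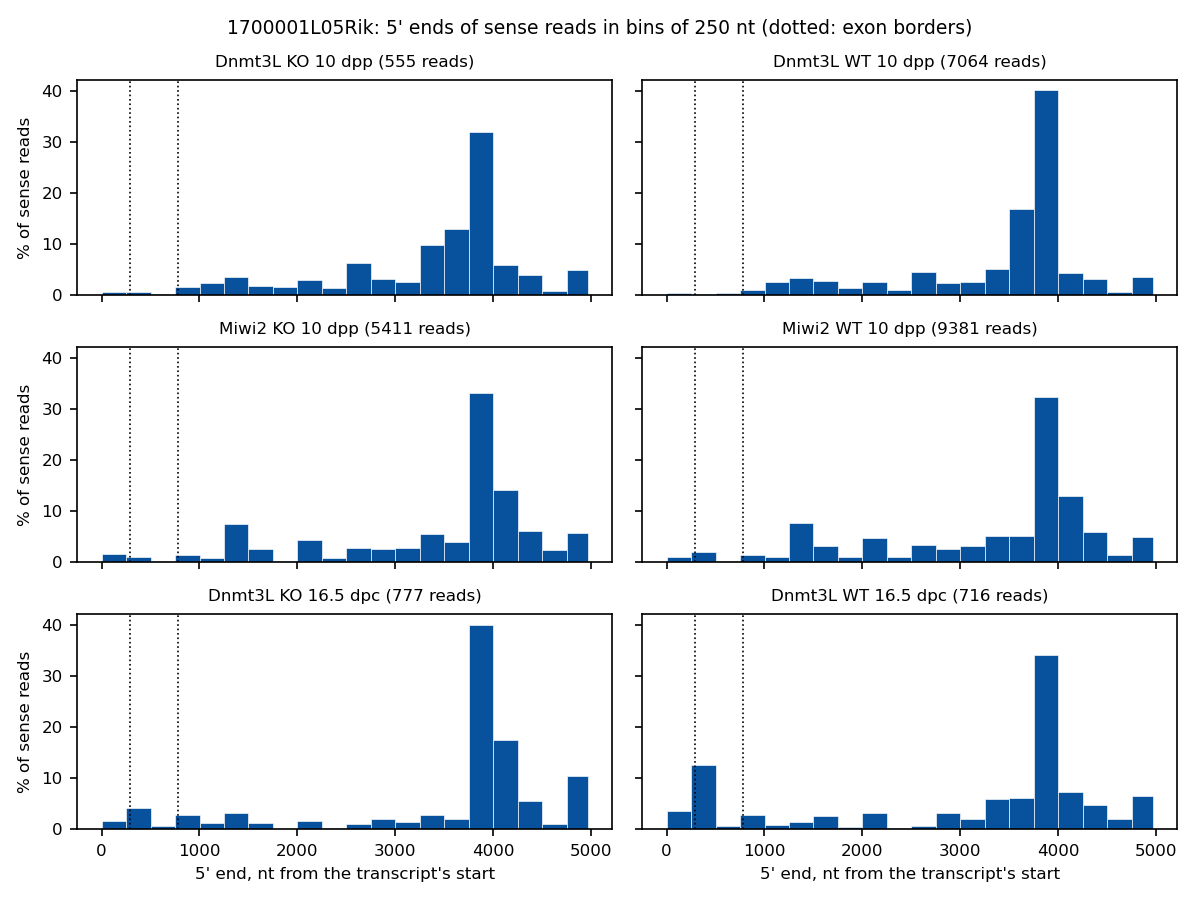
Share of the sense reads of 1700001L05Rik by 5′ end along its transcript, in bins of 250 nt, for each library, with dotted lines at the exon borders. The bin from 3751 to 4000 nt is the highest in each of the 6 libraries.

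Position 3839 gave 67 reads in Dnmt3L KO and 1176 in Dnmt3L WT at 10 dpp, 427 in Miwi2 KO and 804 in Miwi2 WT, and 103 in Dnmt3L KO and 87 in Dnmt3L WT at 16.5 dpc. Over the 4 libraries of 10 dpp it held 11% of sense reads, and positions 3943, 3881 and 4240 held 9.77%, 6.12% and 5.94%. The window of 50 nt from 3835 to 3884 held 21.8% of these reads on 1.01% of the transcript. The same window was the densest in 5 of the 6 libraries, and in the Dnmt3L KO of 16.5 dpc the densest began 3 nt further on.

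The hot spots did not keep the same weight between libraries. Position 3943 held 9.01% of sense reads in Dnmt3L KO and 5.46% in Dnmt3L WT at 10 dpp, and 13.5% in Miwi2 KO and 10.9% in Miwi2 WT. Position 4240 had 6 reads in Dnmt3L KO and 40 in Dnmt3L WT at 10 dpp, 538 in Miwi2 KO and 747 in Miwi2 WT, and 78 in Dnmt3L KO and 14 in Dnmt3L WT at 16.5 dpc. It held 1.08% of sense reads in Dnmt3L KO and 0.566% in Dnmt3L WT at 10 dpp, against 9.94% in Miwi2 KO and 7.96% in Miwi2 WT. The split did not follow the lines at 16.5 dpc, where it held 10.0% in Dnmt3L KO and 1.96% in Dnmt3L WT. At this position reads of 29 to 32 nt were 74.9% in Miwi2 KO and 52.3% in Miwi2 WT, against 0% in Dnmt3L KO and 7.5% in Dnmt3L WT at 10 dpp, and were 51.3% in Dnmt3L KO and 0% in Dnmt3L WT at 16.5 dpc. Reads of 30 nt were 0.0177% of the whole library in Dnmt3L KO and 0.260% in Dnmt3L WT at 10 dpp, 2.0% in Miwi2 KO and 1.77% in Miwi2 WT, and the part of that shift in position 4240 was not tested.

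Over the 228 positions of 1700001L05Rik with at least 10 reads at 10 dpp, the log2 RPM of 5′ ends (0.1 added) correlated with Pearson's r of 0.780 between Dnmt3L KO and WT at 10 dpp, 0.797 between Miwi2 KO and WT, and 0.728 between Dnmt3L KO and WT at 16.5 dpc. Between both WT libraries of 10 dpp r was 0.657, below the value of each KO with its own WT. By Spearman's rank correlation this did not hold at 16.5 dpc, with 0.467 for the WT pair and 0.458 for the fetal KO and WT. At 10 dpp the rank correlation was 0.582 between Dnmt3L KO and WT and 0.635 between Miwi2 KO and WT. Positions share a transcript and a library, so these values are a description. The base after the 3′ end of its reads was U in 34.1% of reads in Dnmt3L KO and 43.3% in Dnmt3L WT at 10 dpp, 38.6% in Miwi2 KO and 36.6% in Miwi2 WT, above the 29% of the transcript. At 16.5 dpc it was U in 34.4% of reads in Dnmt3L KO and 32.7% in Dnmt3L WT. Of pairs in which a read began 0 to 20 nt after the 3′ end of another, 0.200% to 1.49% were at 0 nt. The most frequent distance was 12 to 16 nt. In 1700020I14Rik U followed the 3′ end of 42.0% to 56.9% of all sense reads over the 6 libraries. For its reads of 1 gene this was 12.4% to 27.2%, below the 30.9% of its transcript. U after the 3′ end and a distance of 0 nt are measures of phased piRNA production, which was not tested here. In that process a single cut sets the end of a piRNA and the start of the next.

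1700020I14Rik had 2 patterns. Its shared reads lay almost wholly between positions 7251 and 7750, and position 7488 alone gave 278 reads in Dnmt3L KO and 1300 in Dnmt3L WT at 10 dpp, 921 in Miwi2 KO and 1775 in Miwi2 WT, and 499 in Dnmt3L KO and 482 in Dnmt3L WT at 16.5 dpc. This was 39.6% to 63.0% of the sense reads of each library. Its reads of 1 gene were spread over 32 of 34 bins of 250 nt, and the first bin, from 1 to 250, held 22.4% of them on 3.01% of the length. The densest window of 50 nt moved to 149 to 198 with these reads. At position 7475 the most frequent length was 30 nt in both Miwi2 libraries and both fetal libraries, and 27 nt in Dnmt3L WT at 10 dpp. This position had 0 reads in Dnmt3L KO and 14 in Dnmt3L WT at 10 dpp, and 223 in Miwi2 KO and 251 in Miwi2 WT. It had 97 reads in Dnmt3L KO and 28 in Dnmt3L WT at 16.5 dpc. As at position 4240 of 1700001L05Rik, both Miwi2 libraries were above both Dnmt3L libraries of 10 dpp.

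**Figure D4:**
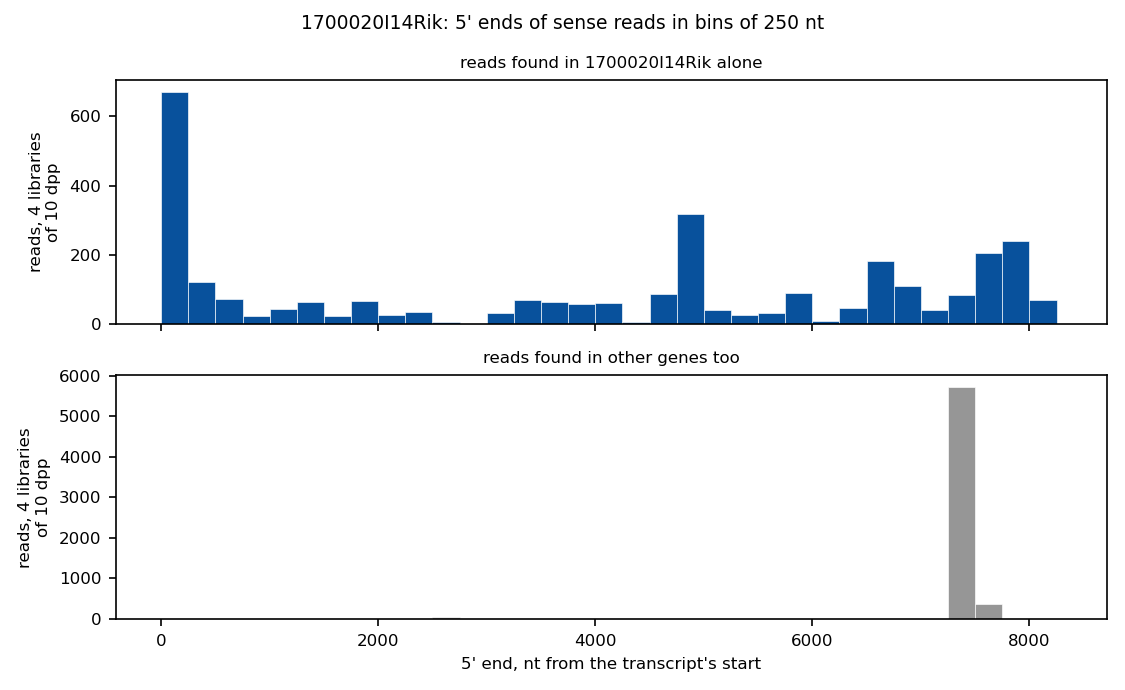
Sense reads of 1700020I14Rik summed over the 4 libraries of 10 dpp by 5′ end along the transcript, in bins of 250 nt, with reads of this gene alone above and reads found in other genes too below, on separate scales. The upper panel is highest in the first bin, with 672 reads, and the lower one has nearly all its reads between 7251 and 7750 nt.

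In Gm40773 position 642 held 94.7% of sense reads in Dnmt3L KO and 96.8% in Dnmt3L WT at 10 dpp, and 95.4% in Miwi2 KO and 92.7% in Miwi2 WT. Its most read sequence had 54 reads in Dnmt3L KO and 3150 in Dnmt3L WT at 10 dpp, 1032 in Miwi2 KO and 1599 in Miwi2 WT, and 4 in Dnmt3L KO and 6 in Dnmt3L WT at 16.5 dpc. Transcripts of Exd1, Cdk6 and Tulp3 contain 99.7%, 99.6% and 99.0% of the sense reads of Gm40773 at 10 dpp. The label of a long noncoding piRNA source therefore rests, for Gm40773, on 1 sequence of 24 nt that 4 genes share, and the reads of 1 gene give it 583rd place among lincRNA genes.

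A difference between libraries was called when its absolute log2 ratio was above 2.24, a limit under which 95% of 5645 transcripts with at least 500 sense reads stayed when Miwi2 WT was set against Dnmt3L WT at 10 dpp, or above 2.08 for reads of 1 gene. The Dnmt3L WT of 10 dpp is in this limit and in 2 of the comparisons below. At 10 dpp the level of 1700001L05Rik in Dnmt3L KO was 0.104 of that in Dnmt3L WT (95% exact conditional binomial interval 0.0954 to 0.114), a log2 ratio of -3.26 that fell past the limit. Of 3924 transcripts 70.0% were lower past the limit, the median log2 ratio was -2.93, and 28.5% of transcripts lay below 1700001L05Rik, so its fall was close to that of transcripts at large. Among reads of 1 gene 81.7% of 541 transcripts were lower.

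For Gm40773 the ratio at 10 dpp was 0.0231 in Dnmt3L KO over Dnmt3L WT (0.0175 to 0.0301), a log2 ratio of -5.43, also past the limit. Its antisense reads gave 0.123 (0.0941 to 0.159). For 1700020I14Rik the ratio was 0.238 (0.214 to 0.263), a log2 ratio of -2.07 that was not past the limit, whereas its reads of 1 gene alone gave 0.190 (0.156 to 0.229), a log2 ratio of -2.40 that was past theirs. With TMM scaling, which centres on the bulk of transcripts, 304 transcripts were higher and 20 lower in Dnmt3L KO, against 6 higher and 2745 lower by RPM, with a median of -0.34. On that scale 1700001L05Rik had a log2 ratio of -0.68 and 1700020I14Rik one of 0.52, neither past the limit of 1.85, while Gm40773 with -2.85 was past it.

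The size of the difference varied with read length. For 1700001L05Rik the level in Dnmt3L KO over that in Dnmt3L WT at 10 dpp was 0.0875 at 24 nt (0.0313 to 0.198, 6 reads in the KO), 0.140 at 25 nt, 0.143 at 26 nt (0.122 to 0.168), 0.117 at 27 nt, 0.0815 at 28 nt and 0.0463 at 29 nt (0.0281 to 0.0722). The intervals at 26 and 29 nt do not overlap. For Miwi2 KO over Miwi2 WT the ratio was 0.471 at 25 nt (0.398 to 0.555), 0.666 at 27 nt, 0.933 at 30 nt (0.845 to 1.03) and 1.55 at 32 nt (1.05 to 2.31). From 26 to 29 nt the ratio of 1700001L05Rik was thus lower for longer reads in the Dnmt3L line. From 25 to 32 nt it was higher for longer reads in the Miwi2 line. All reads of piRNA size shifted in the same directions. Among them 29 to 32 nt made up 0.714% in Dnmt3L KO and 5.30% in Dnmt3L WT at 10 dpp. In the Miwi2 line the share was 26.5% in Miwi2 KO and 23% in Miwi2 WT. The part of these library shifts in the ratios by length was not tested. 1700020I14Rik had 0.267 at 26 nt, 0.110 at 28 nt (0.0667 to 0.171) and 0.160 at 29 nt (0.0616 to 0.351) in Dnmt3L KO over WT. In Miwi2 KO over WT it had 1.12 at 24 nt (0.796 to 1.56), 0.405 at 25 nt (0.311 to 0.523) and 0.921 at 30 nt (0.776 to 1.09), so its order with length was not steady.

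**Figure D5:**
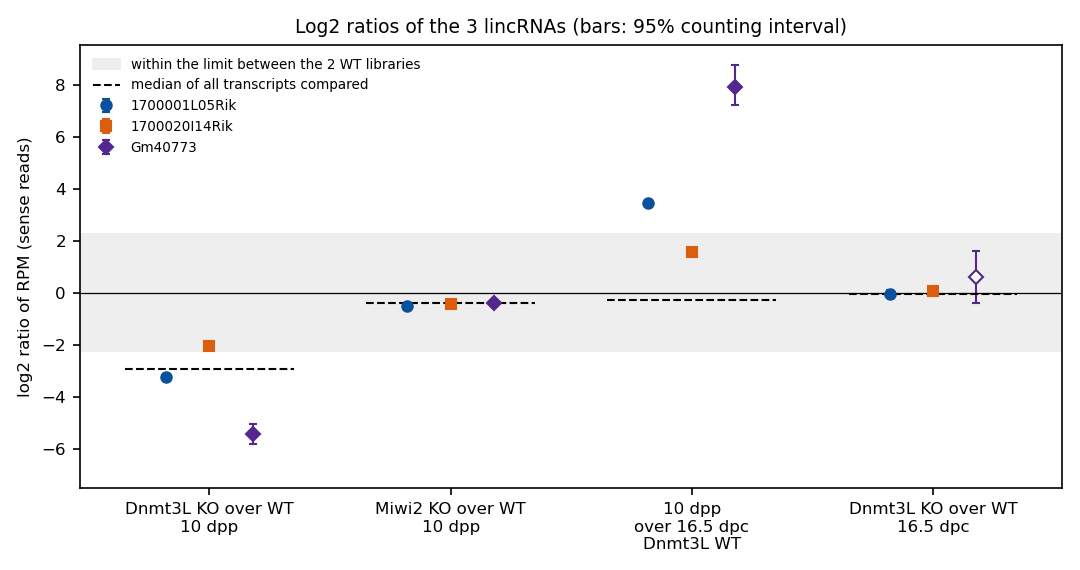
Log2 ratio of sense RPM of each lincRNA for the 4 comparisons, with bars for the 95% exact conditional binomial interval, dashed lines for the median over all transcripts compared, and the grey band for the limit of 2.24 on either side. The open symbol has too few reads to be called. 1700001L05Rik and Gm40773 lie outside the band for Dnmt3L KO over WT at 10 dpp and for 10 dpp over 16.5 dpc, and all 3 genes lie near the median for Miwi2 KO over WT.

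In Miwi2 KO the level over that in Miwi2 WT was 0.698 for 1700001L05Rik (0.674 to 0.721), 0.728 for 1700020I14Rik (0.691 to 0.767) and 0.759 for Gm40773 (0.703 to 0.819). None was past the limit, as for most of 5849 transcripts, of which 3.78% were past it in either direction. Their median log2 ratio was -0.40, and the 3 genes lay between -0.52 and -0.40. The interval of each gene excludes equal levels as far as counting goes, but not the spread between animals, which 1 pool per group cannot give.

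At 16.5 dpc the level in Dnmt3L KO over that in Dnmt3L WT was 0.973 for 1700001L05Rik (0.878 to 1.08) and 1.04 for 1700020I14Rik (0.953 to 1.14). Neither was past the limit, and 0.228% of 5691 transcripts were, in either direction. Gm40773 had too few reads there to be called, with a ratio of 1.5 (0.758 to 3.05). In the Dnmt3L WT testis the level at 10 dpp over that at 16.5 dpc was 11 for 1700001L05Rik (10.2 to 11.9) and 242 for Gm40773 (147 to 434), both past the limit, and 2.98 for 1700020I14Rik (2.76 to 3.22), which was not. Of 5523 transcripts 12.0% were higher past the limit at 10 dpp, and 48.7% of 799 by reads of 1 gene. Scaled to miRNA reads, 1700001L05Rik had a log2 ratio of 2.34, below the limit of 2.89 on that scale.

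Among 8335 transcripts with at least 500 sense reads, those whose levels over the 6 libraries were most like 1700001L05Rik belonged to Cbx5, the heterochromatin protein HP1 alpha (Pearson's r of log2 RPM with 0.1 added, 0.9995), Vkorc1l1, a vitamin K epoxide reductase (0.9994), and Slc36a4, an amino acid transporter (0.9988). Cbx5 had 32.3 RPM in Dnmt3L KO and 252 RPM in Dnmt3L WT at 10 dpp, 201 RPM in Miwi2 KO and 304 RPM in Miwi2 WT, and 26.3 RPM in Dnmt3L KO and 28.7 RPM in Dnmt3L WT at 16.5 dpc. None of the reads of these 3 genes was shared with 1700001L05Rik. Most like 1700020I14Rik were Ctps2, a CTP synthase, Zfp609, a zinc finger protein, and Pdp2, a pyruvate dehydrogenase phosphatase (0.9991 to 0.9996). Most like Gm40773 were the olfactory receptor gene Olfr788, Gm34589 and Sec14l4, a lipid-binding protein (0.9975 to 0.9992). With 6 libraries these correlations are descriptions of the same few contrasts.

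The 20 genes of the PIWI pathway that were listed for comparison gave few reads from their own transcripts. None of the 20 reached 500 sense reads of 1 gene in the Dnmt3L pair of 10 dpp, so no change could be called for them. Piwil2, which encodes the PIWI protein MILI, had 0.209 RPM of such reads in Dnmt3L KO and 3.26 RPM in Dnmt3L WT at 10 dpp, and 2.96 RPM in Miwi2 KO and 4.89 RPM in Miwi2 WT. Its order of libraries was that of 1700001L05Rik.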

How the data were processed

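The deposited files list each read sequence with its raw count, and mm9 is the build that the submitters' processing notes name. The sources used here do not give the trimming or filters. Exact matches of reads of 24 to 32 nt were looked for on either strand of the longest GENCODE M21 transcript (GRCm38) of 55450 genes, with Python 3.11.15, numpy 2.4.6 and numba 0.67.0. Reads outside transcripts were not analysed here. A read counted in full in each gene that held it, and reads of 1 gene were also counted alone. Levels are counts per 1000000 reads of the library (28701563 to 47232494), so that 3 counts, the floor, are 0.0635 to 0.105 RPM. Intervals at 95% came from scipy 1.17.1 and TMM factors from edgeR 4.0.16 in R 4.3.3. With 1 library per group, no test was made. Transcripts needed 500 sense reads over the compared libraries. Alternatives changed the scaling, length class, treatment of shared reads, strand, transcript and minimum. The matching and the limit were tested on simulated data. The 3 genes and all lists, including the miRNA markers, the PIWI pathway genes and the rule for named genes (most alike profiles, most read lincRNAs, hot spots with at least 5% of reads), were chosen with earlier results of these data known. Small RNA reads cannot check whether Dnmt3L or Miwi2 was lost, so groups follow the labels.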

Additional observations from a re-analysis of the deposited data

Results flagged for a closer look

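At 16.5 dpc the log2 ratio of Dnmt3L KO over Dnmt3L WT was 0.0589 for 1700020I14Rik and 0.5803 for Gm40773, both opposite in sign to those at 10 dpp, -2.07 and -5.43. The difference between the ages was not tested, and the fetal value of Gm40773 rests on 25 reads in Dnmt3L KO and 15 in Dnmt3L WT.

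The antisense reads of Gm40773 had a log2 ratio of 0.1228 in Miwi2 KO over Miwi2 WT and of -3.02 in Dnmt3L KO over Dnmt3L WT at 10 dpp. This difference between the lines was not tested either.

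Shorter reads, which the piRNA class leaves out, were found on the antisense strand of Gm40773. Of 20 to 23 nt there were 358 reads in Dnmt3L KO and 3854 in Dnmt3L WT at 10 dpp, and 6245 in Miwi2 KO and 5354 in Miwi2 WT. This exceeds the 65, 699, 1608 and 1786 antisense reads of 24 to 32 nt in the same libraries and order.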

How the results depend on the processing

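Of 100 log2 ratios recomputed under an alternative, 83 kept their direction and their side of the limit or, with too few reads to be called, stayed within the counting interval. With TMM scaling the ratios at 10 dpp in Dnmt3L KO over WT were -0.68 for 1700001L05Rik (limit 1.85) and 0.52 for 1700020I14Rik, and Gm40773 stayed past the limit with -2.85. With distinct sequences counted once, 1700001L05Rik had -0.94 there (limit 1.17), and 1700020I14Rik had -0.25 at 16.5 dpc, 0.0499 in Miwi2 KO over WT and 2.56 between the ages, past the limit. With miRNA scaling 1700001L05Rik had 0.15 at 16.5 dpc and 2.34 between the ages. In Dnmt3L KO over WT at 10 dpp, 1700020I14Rik passed the limit with reads of 1 gene (-2.40, limit 2.08) and divided reads (-2.40, limit 1.94). It also passed, narrowly, with 24 to 28 nt (-2.043, limit 2.037) and both strands (-2.058, limit 2.053). These last falls were smaller than the main one of -2.072, which did not pass its higher limit of 2.243. At 16.5 dpc 1700020I14Rik had -0.0489 with 24 to 28 nt, -0.47 with reads of 1 gene and -0.24 with divided reads. With 25 to 30 nt, which drops its main sequence, Gm40773 had -0.85 in Miwi2 KO over WT and 3.82 between the ages. Causes of the other shifts were not tested. Levels moved past their counting interval in 111 of 162 recomputations. Leaving out a library was not possible with 1 per group, and depth limits Gm40773 at 16.5 dpc. No paired analysis was possible because each group has 1 library.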

Other observations

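Other lincRNA genes whose reads were found in no other gene are given for comparison. AU020206 had 23.2 RPM of such sense reads in Dnmt3L KO and 131 RPM in Dnmt3L WT at 10 dpp, 179 RPM in Miwi2 KO and 271 RPM in Miwi2 WT, and 62.3 RPM in Dnmt3L KO and 65.3 RPM in Dnmt3L WT at 16.5 dpc. It was thus well above 1700001L05Rik in the fetal testis. 9330102E08Rik had 6.90 RPM in Dnmt3L KO and 30.5 RPM in Dnmt3L WT at 10 dpp, and 4.02 RPM in Dnmt3L KO and 4.22 RPM in Dnmt3L WT at 16.5 dpc. Both were chosen after their values were seen. Of the 20 listed PIWI pathway genes Exd1 had the most reads of 1 gene at 10 dpp, 1483, against 22411 for 1700001L05Rik.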
